A study of Mus musculus with 5 samples.

Results

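The day 5 library of regenerating mouse muscle held a population that the submitters labelled Macrophages/APCs/T-cells, with APC standing for antigen-presenting cell. All cells carrying that label in the deposited annotation were taken, which gave 409 of the 2164 annotated day 5 cells and of the 17923 annotated cells of the series. They made up 18.9% of the day 5 cells (95% exact binomial interval 17.3% to 20.6%) and 36.1% of the 1134 day 5 cells with an immune label (33.3% to 38.9%). The data bore out the T cell part of the name widely, the APC part in few cells at most, and not the macrophage part. The CD3 genes of the T cell receptor stood above every other day 5 label, while the macrophage list summed to 1239 cpm (UMIs per 1000000 UMIs), against 1131 cpm in NK cells, 2942 cpm in FAPs and 42248 cpm in Anti-inflammatory macrophages. The MHC class II list, genes of antigen presentation, summed to 1543 cpm, against 532 cpm in NK cells, 421 cpm in FAPs and 46297 cpm in Anti-inflammatory macrophages. Of the UMIs of Cd74, a gene of that list, 74.5% lay in 5 cells. The population is therefore called the mixed-label cells here.

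The mixed-label cells came from the tibialis anterior, a shin muscle, of a 4-month-old female C57Bl/6 mouse or mice 5 days after an injection of notexin, which kills muscle fibres and comes from snake venom. Viable cells, gated by propidium iodide and Calcein-AM, were measured as droplet libraries that count each mRNA molecule by its unique molecular identifier (UMI). The other samples, used here only for levels set side by side, were uninjured muscle at day 0 (4 months, female, 2 sequencing runs in 1 matrix), day 2 after notexin (7 months, female) and day 7 after notexin (4 months, male). No number of mice is given for a library. There was 1 library per injury day, so no comparison has a replicate or a test, and day cannot be told apart from age, sex and library.

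T cells recognise peptides held by MHC molecules on other cells through a receptor whose signal runs through the CD3 chains. CD8 T cells read MHC class I and can kill, CD4 T cells read class II and help or restrain, and gamma delta T cells use another receptor and are a known early source of interleukin 17. Macrophages and dendritic cells display class II with the invariant chain Cd74. In injured muscle macrophages clear debris, and regulatory T cells are known to aid repair.

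The mixed-label cells held 742706 of the 5986701 UMIs of day 5, with a median of 1357 UMIs per cell (range 1005 to 12177) and 649 genes, against a median of 2287 UMIs in all other day 5 cells. Their median mitochondrial share was 3.03%, against 2.63% in all other day 5 cells. Matrix totals of the series ran from 5986701 to 57723171 UMIs. Of the 409 barcodes, 1, 3 and 4 also occurred in the matrices of days 0, 2 and 7. Levels are UMIs summed over the cells of a population, per 1000000 UMIs of that population (cpm). They are compared between populations, not between genes of unequal length. Brackets after a log2 ratio give its 95% counting interval, which covers counting error only.

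Cd3d, Cd3e and Cd3g encode the CD3 chains of the T cell receptor, and their level sets this population apart from the other labels. The 3 genes lie next to each other on mouse chromosome 9. The start sites of Cd3d and Cd3g, on opposite strands, are 1355 bases apart, and that of Cd3e is 27825 bases from that of Cd3d. Their promoter windows, 250 bases before to 50 after the start site, are shown because all 3 genes were high in the mixed-label cells (RefSeq, GRCm38.p6, each on its gene's strand: Cd3d chr9:44981536-44981835, plus; Cd3g chr9:44980382-44980681, minus; Cd3e chr9:45009562-45009861, minus). Capitals mark the E box CAGGTG, the type of site that E proteins of lymphocytes bind, found here as its reverse complement.
Cd3d: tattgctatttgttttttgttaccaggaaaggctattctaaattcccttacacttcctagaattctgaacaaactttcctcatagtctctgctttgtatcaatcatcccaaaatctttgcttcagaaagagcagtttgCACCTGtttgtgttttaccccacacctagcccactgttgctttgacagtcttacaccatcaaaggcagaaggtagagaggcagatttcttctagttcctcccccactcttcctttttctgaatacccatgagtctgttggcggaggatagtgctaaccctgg
Cd3g: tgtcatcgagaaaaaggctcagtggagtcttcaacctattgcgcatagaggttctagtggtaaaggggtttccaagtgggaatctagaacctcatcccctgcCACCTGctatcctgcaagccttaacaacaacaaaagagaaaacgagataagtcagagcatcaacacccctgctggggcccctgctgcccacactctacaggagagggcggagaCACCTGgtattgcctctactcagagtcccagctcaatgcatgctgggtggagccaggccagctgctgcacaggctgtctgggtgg
Cd3e: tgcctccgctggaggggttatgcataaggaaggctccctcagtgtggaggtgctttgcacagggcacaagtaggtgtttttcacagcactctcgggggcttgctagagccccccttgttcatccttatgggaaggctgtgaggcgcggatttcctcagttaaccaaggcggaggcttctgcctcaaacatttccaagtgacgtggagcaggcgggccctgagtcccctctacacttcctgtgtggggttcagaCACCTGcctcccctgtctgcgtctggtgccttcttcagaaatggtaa
The E box, searched on both strands, occurred in all 3 windows, with 1 copy for Cd3d, 2 for Cd3g and 1 for Cd3e, and in 20.2% of the 32851 mouse promoter windows. The ETS-type core AGGAAG had 2 copies in the Cd3d window and 2 in the Cd3e window and occurred in 35.4% of all windows. The RUNX-type core TGTGGT occurred in none of the 3 windows and in 16.8% of all windows. The core AGATAA had 1 copy for Cd3g and occurred in 11.2% of all windows, and CTTTGA had 2 copies for Cd3d and occurred in 16.0%. A match describes letters only and says nothing of binding.

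Cd3d was detected in 232 of the 409 mixed-label cells (56.7%) at 621 cpm, against 67.6 cpm in NK cells, 12.6 cpm in Anti-inflammatory macrophages and 9.60 cpm in FAPs, the fibro-adipogenic progenitors that form connective tissue. Over all other day 5 cells the Cd3d log2 ratio was 5.19 (4.86 to 5.54), from 461 UMIs against 89. Cd3g stood at 299 cpm against 4.77 cpm in all other day 5 cells, a log2 ratio of 5.97 (5.37 to 6.63). Cd3e stood at 171 cpm against 3.24 cpm, a log2 ratio of 5.72 (4.99 to 6.55). At least 1 UMI of the 3 CD3 genes was seen in 295 mixed-label cells (72.1%, 67.5% to 76.4%), against 22 of 264 NK cells (8.33%), 19 of 432 Anti-inflammatory macrophages (4.40%) and 33 of 828 FAPs (3.99%). With every cell thinned to 500 UMIs, Cd3d was detected in 28.6% of mixed-label cells, against 2.27% of NK cells, 0.926% of Anti-inflammatory macrophages and 0.604% of FAPs. No other label overlapped the interval of the mixed-label cells at that depth. The labels come from clustering of the same counts, so this separation describes the label and tests nothing. FAPs have no T cell receptor, so their share is used as a background level. Whether it came from free RNA, doublets or mislabelled cells was not tested.

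**Figure D1:**
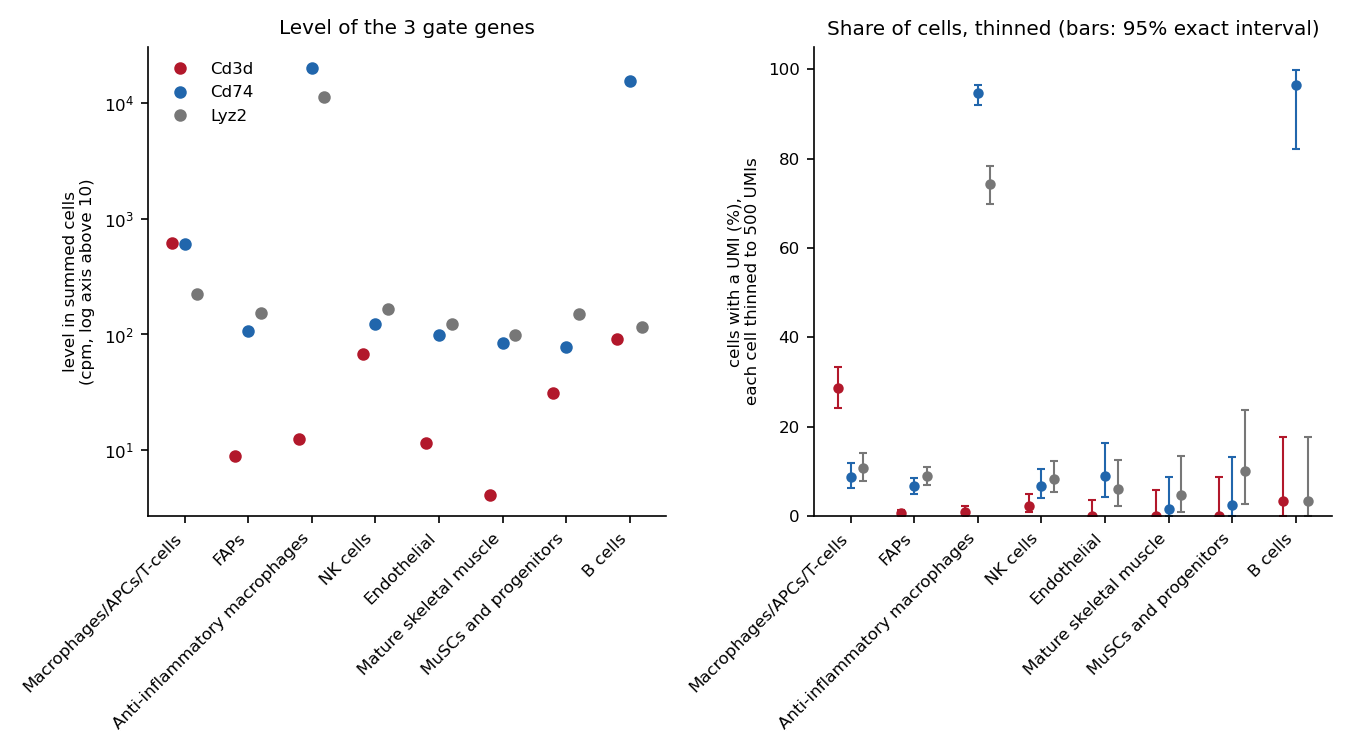
Left, level of Cd3d, Cd74 and Lyz2 in the summed cells of each day 5 label (cpm, logarithmic above 10); right, percent of cells with a UMI after thinning each cell to 500 UMIs, with 95% exact binomial intervals (1 library). The mixed-label cells stand highest for Cd3d (621 cpm, 28.6% of thinned cells) and near FAPs and NK cells for thinned Cd74 and Lyz2.

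Trac, Trbc1 and Trbc2, receptor chain genes of the T cell receptor complex list, had no entry in the day 5 counts. The rest of the list showed the same picture. All 17 of its measured members were at least 2-fold higher in the mixed-label cells than in all other day 5 cells, where 10.2% of 11168 genes were that much higher and 28.8% that much lower. The median log2 ratio of the list was 3.76, against -0.26 over all those genes. The largest was that of Bcl11b, a transcription factor of T cell identity, at 112 cpm against 1.53 cpm (log2 ratio 6.19, 5.15 to 7.45). Cd6, a T cell co-receptor, stood at 95.6 cpm against 1.33 cpm, and Lat, the adaptor that links the receptor to its signal, at 250 cpm against 10.5 cpm. Cd28, the main co-stimulatory receptor, stood at 265 cpm against 23.3 cpm. The smallest ratio was that of Thy1, which fibroblasts also carry, at 517 cpm against 213 cpm (log2 ratio 1.28, 1.11 to 1.45).

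Of the list of T cell subset genes, 21 of 23 measured members were at least 2-fold higher in the mixed-label cells than in all other day 5 cells, and none was that much lower, with a median log2 ratio of 3.22. Ctla4, an inhibitory receptor of activated and regulatory T cells, stood at 133 cpm against 2.48 cpm (log2 ratio 5.75, 4.91 to 6.71). Icos, a co-stimulatory receptor, stood at 166 cpm against 4.77 cpm. Cd40lg, the CD4 T cell help signal, stood at 95.6 cpm against 1.14 cpm. Cd8b1, a CD8 co-receptor chain, stood at 118 cpm against 5.91 cpm, and Cd4 at 60.6 cpm against 7.44 cpm. Il17a, which encodes interleukin 17A, stood at 92.9 cpm against 1.91 cpm. Trdc, a receptor chain gene of gamma delta T cells in the list, had no entry in the day 5 counts, so it could not mark those cells. The lymph node homing receptor Ccr7 (40.4 cpm against 46.3 cpm) and Klf2 (320 cpm against 420 cpm), both known from resting T cells that circulate, were within 2-fold. Both references mix unlike labels. B cells held 202 Ccr7 UMIs (2628 cpm), against 1 UMI in NK cells (2.25 cpm). In the mixed-label cells 8 of the 30 Ccr7 UMIs lay in 1 cell. Klf2 stood at 1217 cpm in Endothelial cells and 237 cpm in NK cells. Cxcr6, a chemokine receptor of tissue T cells outside that list, stood at 109 cpm against 3.43 cpm (log2 ratio 4.99, 4.24 to 5.81). Gm8369, a gene with no role stated here, was among the 15 genes with the largest ratios (121 cpm against 3.43 cpm), as was Ltb, which encodes lymphotoxin beta (295 cpm against 17.4 cpm).

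**Figure D2:**
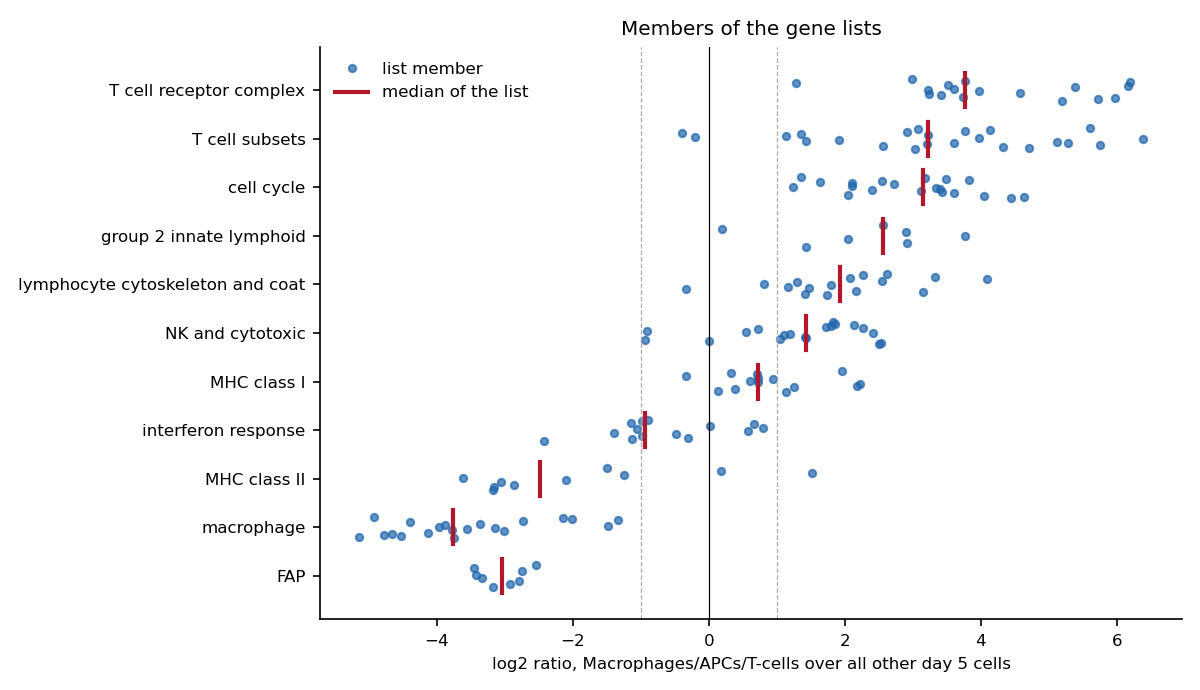
Each point is a measured member of a gene list (at least 20 UMIs over both groups), placed by its log2 ratio of the mixed-label cells over all other day 5 cells; red bars are list medians and dashed lines mark 2-fold. The T cell receptor complex list has its median at 3.76 and the macrophage list at -3.77.

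Macrophage genes were low. All 20 measured members of the macrophage list were at least 2-fold lower in the mixed-label cells than in all other day 5 cells, with a median log2 ratio of -3.77. The complement genes C1qa (16.2 cpm against 568 cpm) and C1qc (13.5 cpm against 368 cpm), the lipopolysaccharide co-receptor Cd14 (6.73 cpm against 204 cpm) and the chemokine Pf4 (6.73 cpm against 171 cpm) were among the 10 genes with the smallest ratios. Pltp, Myoc, Lpl, Lima1, Cygb and Igfbp5 were the others, with log2 ratios between -5.11 and -4.64. C1qa was detected in 12 of the 409 cells (2.93%, 1.53% to 5.07%), against 4.55% of NK cells, 65.3% of Anti-inflammatory macrophages and 6.28% of FAPs. Lyz2, the lysozyme gene of macrophages, stood at 224 cpm in the mixed-label cells, against 167 cpm in NK cells, 11183 cpm in Anti-inflammatory macrophages and 154 cpm in FAPs. It was detected in 31.5% of mixed-label cells, against 26.5% of NK cells, 86.8% of Anti-inflammatory macrophages and 39.7% of FAPs. After thinning to 500 UMIs the Lyz2 shares were 10.8% (7.93% to 14.2%) in mixed-label cells, against 8.33% in NK cells, 74.3% in Anti-inflammatory macrophages and 8.94% in FAPs. A share at the level of FAPs and NK cells is read as background. Only 1 mixed-label cell had 10 or more Lyz2 UMIs, against 249 of 432 Anti-inflammatory macrophages.

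Most Cd74 UMIs lay in a few cells, and class II UMIs were partly concentrated there, with 104 of 190 H2-Aa and 125 of 266 H2-Ab1 UMIs in the 3 cells highest for each gene. Cd74 stood at 602 cpm in the mixed-label cells, against 124 cpm in NK cells, 19779 cpm in Anti-inflammatory macrophages and 107 cpm in FAPs. Of its 447 UMIs, 333 (74.5%) lay in 5 cells with 10 or more, at 132, 131, 25, 24 and 21 UMIs. Without those 5 cells, a setting added after the values were seen, the other 404 cells stood at 158 cpm. The share of mixed-label cells with Cd74 was 21.0%, against 19.3% of NK cells, 97.7% of Anti-inflammatory macrophages and 29.3% of FAPs. Thinned to 500 UMIs it was 8.80% (6.24% to 12.0%), against 6.82%, 94.7% and 6.64% in the same 3 labels. Of the MHC class II list, 8 of 10 measured members were at least 2-fold lower than in all other day 5 cells and 1, H2-Oa, was that much higher (14.8 cpm against 5.15 cpm, from 11 UMIs). The list's median log2 ratio was -2.49, and -3.37 without the 5 cells.

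The 5 cells with high Cd74 differed from each other. The first, with 7138 UMIs, held 132 Cd74, 48 H2-Aa and 64 H2-Ab1 UMIs and 3 UMIs of Flt3, a growth factor receptor of dendritic cells, with 0 UMIs of the CD3 genes, Lyz2 and C1qa. The second, with 8984 UMIs, held 131 Cd74 UMIs together with 8 Cd3d, 7 Cd3g, 10 Lyz2 and 8 Ccr7 UMIs. That cell carries genes of more than 1 lineage, and Scrublet did not call it a doublet. The other 3 cells, with 1275 to 2335 UMIs, held 1 to 4 UMIs of Cd79a, the B cell receptor chain, and 1 or 2 of Ms4a1, which encodes CD20. Cd79a was at 0 in the first 2. Among these 5 cells, 0 had a UMI of Nkg7 or Ccl5.

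**Figure D3:**
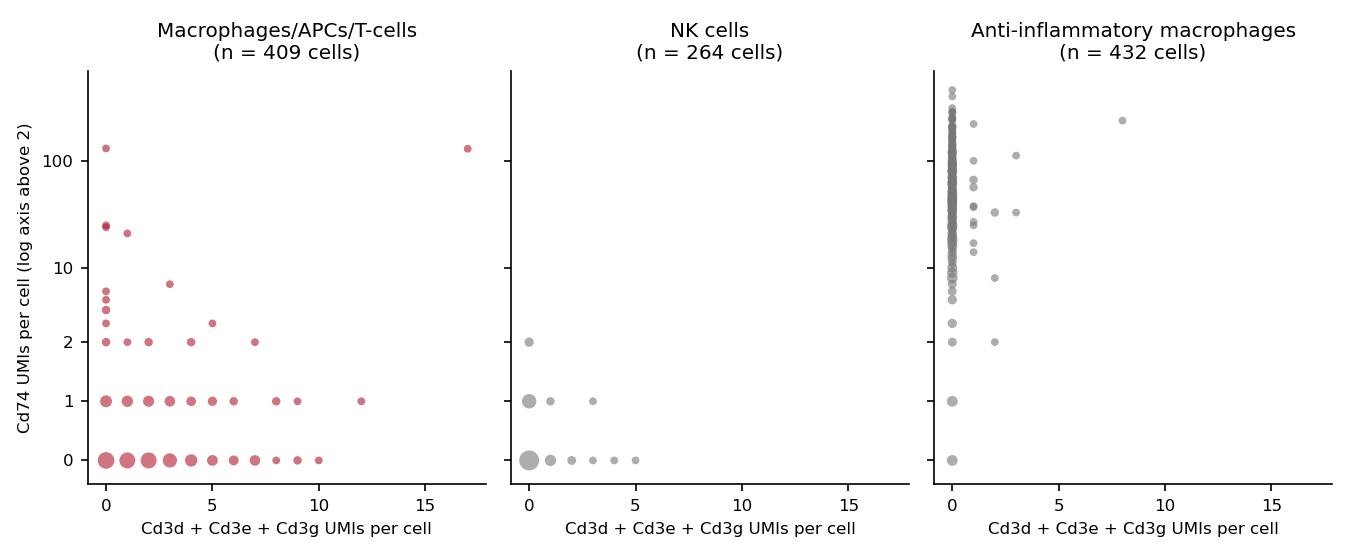
Cd74 UMIs per cell (logarithmic above 2) against the summed Cd3d, Cd3e and Cd3g UMIs per cell in the mixed-label cells, NK cells and Anti-inflammatory macrophages of day 5; larger points hold more cells. The mixed-label cells spread along the Cd3 axis, with 5 cells at 10 or more Cd74 UMIs, 1 of them with 17 Cd3 UMIs.

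The mixed-label cells were set against the 264 day 5 cells labelled NK cells, natural killer lymphocytes that share much of the cytotoxic programme with CD8 T cells. Here 618 of 5413 genes (11.4%) were at least 2-fold higher in the mixed-label cells and 4.71% at least 2-fold lower. Of the T cell receptor complex list, 8 of 17 measured members were at least 2-fold higher and none that much lower, with a median log2 ratio of 0.99. The members with the largest ratios were Cd6, Cd3e, Cd3g and Cd5. Cd6 had 71 UMIs against 1 in NK cells. Cd3e stood at 171 cpm against 4.51 cpm in NK cells, from 127 UMIs against 2 (log2 ratio 5.25, 3.36 to 8.31). Cd3g stood at 299 cpm against 9.01 cpm (log2 ratio 5.05, 3.68 to 6.94). Lck, a kinase that both cell types use, was at 197 cpm against 173 cpm, and Ms4a4b at 525 cpm against 649 cpm.

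The remaining genes with the largest ratios over NK cells were Cd8b1 (118 cpm against 2.25 cpm), Tnc, Il7r, Birc5, Gm8369 and 2810417H13Rik. Il7r, the interleukin 7 receptor of T cells and helper-like innate cells, had 108 UMIs in the mixed-label cells and 0 in NK cells, at least 21.5-fold higher against a floor of 3 counts over the group. Birc5, a mitosis gene, had 98 UMIs against 0, at least 19.5-fold higher. Tnc, a matrix protein of connective tissue, stood at 128 cpm against 4.51 cpm, but 65 of its 95 UMIs lay in 1 cell and 92 in 3. That ratio describes those cells and not the population. Of the FAP list, 6 of 8 measured members were at least 2-fold higher than in NK cells, and the list summed to 4104 cpm against 1221 cpm. Without 6 cells that hold 61.7% of these UMIs, Col3a1 stood at 399 cpm against 284 cpm, Dcn at 244 cpm against 234 cpm and Col1a1 at 178 cpm against 92.4 cpm, all within 2-fold.

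Cytotoxic genes were present in the mixed-label cells at levels under those of NK cells. Nkg7, a granule protein, stood at 1140 cpm against 2189 cpm in NK cells and was detected in 55.5% of mixed-label cells against 91.3% of NK cells. Ccl5, a chemokine, stood at 5079 cpm against 6215 cpm. Gzma, which encodes granzyme A, stood at 708 cpm against 4715 cpm (log2 ratio -2.73, -2.88 to -2.60), and the NK receptor Klra8 at 40.4 cpm against 847 cpm. Ifng, the interferon gamma gene, was at 137 cpm against 146 cpm. Of the NK and cytotoxic list, 16 of 19 measured members were at least 2-fold lower than in NK cells and none that much higher, with a median log2 ratio of -1.64.

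Set against all other day 5 cells, 14 of 19 measured members of the NK and cytotoxic list were at least 2-fold higher in the mixed-label cells, with a median log2 ratio of 1.43. This value changed with the weight of cells. As the mean of each cell's cpm it was 0.27, with 6 members higher and 3 lower, and against the other immune-labelled cells alone it was 0.13. Klrb1c, which encodes the NK1.1 antigen, was detected in 4.65% of mixed-label cells, against 31.8% of NK cells.

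**Figure D4:**
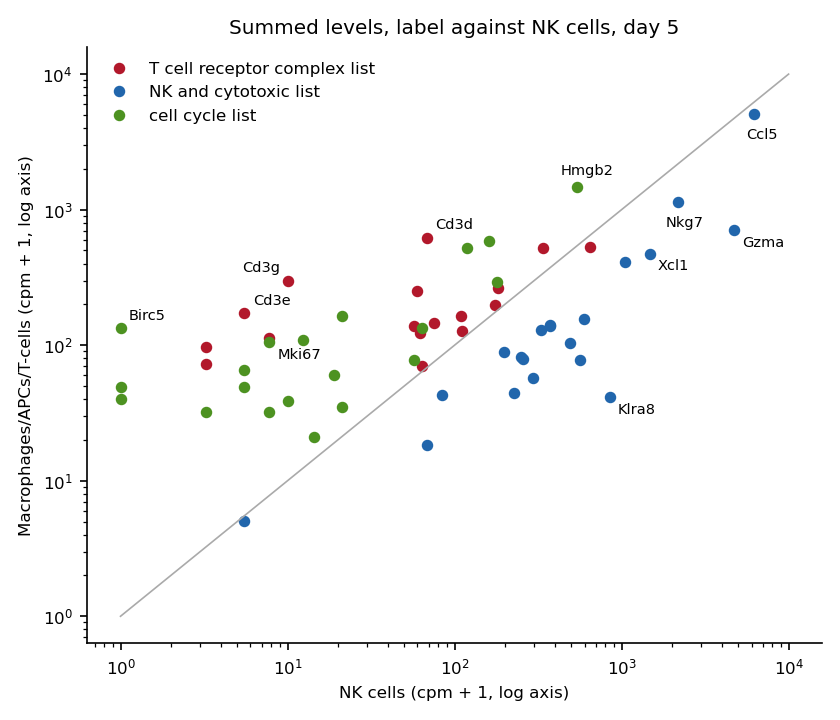
Level of each member of the T cell receptor complex, NK and cytotoxic and cell cycle lists in the mixed-label cells (vertical) against NK cells (horizontal), in cpm plus 1 on logarithmic axes, with the line of equal level. Members of the NK list lie below the line (16 of 19 measured at least 2-fold lower), Cd3e and Cd3g far above it.

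Against the 432 Anti-inflammatory macrophages, 17.3% of 7421 genes were at least 2-fold higher in the mixed-label cells and 18.0% at least 2-fold lower. All 17 measured members of the T cell receptor complex list were at least 2-fold higher (median log2 ratio 4.89), and all 20 of the macrophage list at least 2-fold lower (median -5.55). The 8 genes with the largest ratios were Tcf7, Ctsw, Bcl11b, Lck, Xcl1, Ctla4, Nkg7 and Cd3g. Tcf7, a transcription factor of T cells, stood at 163 cpm against 0.738 cpm, from 121 UMIs against 1, and Nkg7 at 1140 cpm against 19.2 cpm (log2 ratio 5.89, 5.33 to 6.52). The 29 cells labelled B cells had 76862 UMIs in all. Nkg7 stood at 1140 cpm in the mixed-label cells against 13 cpm there, from 847 UMIs against 1, and Thy1 had 384 UMIs against 1.

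Cell cycle genes were also higher. All 20 measured members of the cell cycle list were at least 2-fold higher in the mixed-label cells than in all other day 5 cells (median log2 ratio 3.15), and 16 of 20 were at least 2-fold higher than in NK cells (median 2.18). Top2a, which untangles DNA in dividing cells, stood at 162 cpm against 6.48 cpm in all other day 5 cells, and Mki67, a proliferation marker, at 104 cpm against 4.77 cpm (log2 ratio 4.44, 3.78 to 5.16). Mki67 was detected in 37 mixed-label cells (9.05%), against 1.14% of NK cells, 2.31% of Anti-inflammatory macrophages, 0.121% of FAPs and 7.50% of the 40 MuSCs and progenitors, the muscle stem cells and their progeny. The cell cycle list summed to 3989 cpm in the mixed-label cells, against 2267 cpm in MuSCs and progenitors and 1234 cpm in NK cells. Hmgb2 alone gave 1457 cpm of that sum, against 370 cpm in MuSCs and progenitors and 543 cpm in NK cells. Against MuSCs and progenitors, members went both ways. Top2a was higher (162 cpm against 63.0 cpm) and Cdk1 lower (33.7 cpm against 102 cpm) in the mixed-label cells. Of the 37 mixed-label cells with Mki67, 17 (45.9%) had Cd3d, against 56.7% of all 409 cells. Klrb1c was in 12 of the 37 (32.4%), against 4.65% of all 409 cells.

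The cells of the label were divided by whether they had UMIs of Cd3d, Cd74 and Lyz2. Of the 8 combinations, the most common was Cd3d alone, in 126 cells (30.8%, 26.4% to 35.5%), followed by none of the 3 genes, in 99 cells (24.2%). Cd3d with Lyz2 was in 56 cells, Lyz2 alone in 42, Cd3d with Cd74 in 34, Cd74 alone in 21, all 3 genes in 16 and Cd74 with Lyz2 in 15. In the cells without any of the 3 genes the T cell receptor complex list without Cd3d summed to 2949 cpm, against 4022 cpm in cells with Cd3d alone, and Nkg7 stood at 1147 cpm against 1367 cpm. These sums cover a mixture of cells. The macrophage list without Lyz2 summed to 615 to 1606 cpm across the 8 combinations. Its highest value, in the 15 cells with Cd74 and Lyz2 but no Cd3d, is to be read against 12844 cpm in all other day 5 cells for the list with Lyz2.

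A contrast was made between the 160 cells with Cd3d and no Lyz2 and the 57 cells with Lyz2 and no Cd3d, which differed little in macrophage genes. The Lyz2 share of the label is read as background above, so the 57 cells are not taken as a macrophage lineage. Of 2406 genes, 9.06% were at least 2-fold higher and 9.35% at least 2-fold lower in the Cd3d+ Lyz2- cells. Of the macrophage list without Lyz2, only 4 members had 20 UMIs. 1 of the 4 was at least 2-fold lower in the Cd3d+ Lyz2- cells, and the summed level of the list was 801 cpm in those cells, against 1245 cpm in the Cd3d- Lyz2+ cells. Of the T cell receptor complex list without Cd3d, 5 of 16 measured members were at least 2-fold higher and none lower (median log2 ratio 0.70). Cd3g stood at 410 cpm against 124 cpm, Lat at 340 cpm against 103 cpm and Cd8b1 at 195 cpm against 36.6 cpm. Ccl5 stood at 7429 cpm against 2966 cpm, and Ifi27l2a, an interferon-induced gene, at 1703 cpm against 505 cpm.

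Among the 15 genes with the smallest ratios were the matrix genes Cilp, Bgn and Sparc and several collagen genes, with Cxcl14 first and Gzma sixth. All 7 measured members of the FAP list were at least 2-fold lower in the Cd3d+ Lyz2- cells, and the list summed to 1406 cpm there, against 11958 cpm in the Cd3d- Lyz2+ cells. Col1a1 stood at 160 cpm against 1736 cpm, Col3a1 at 344 cpm against 3332 cpm and Cxcl14 at 7.81 cpm against 417 cpm. Gzma had a log2 ratio of -3.77 (-4.40 to -3.18), and Tyrobp, a signalling adaptor of NK and myeloid cells, at 58.6 cpm against 644 cpm. The metallothionein genes Mt1 (215 cpm against 1750 cpm) and Mt2 (113 cpm against 747 cpm) had the same direction. Few cells carried much of this: 58 of the 67 Cxcl14 UMIs of the label lay in 3 cells, as did 57.3% of Mt1 and 50.6% of Mt2 UMIs. Without 6 cells rich in FAP genes, described next, the log2 ratios of Mt1 and Mt2 were -1.37 and -1.50.

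The collagen RNA came mostly from few cells. In all 409 cells, 6 cells with over 2% of their UMIs in the FAP list held 1882 of its 3048 UMIs (61.7%), with 945 in a cell of 11506 UMIs. The median share over the label was 0.131% of a cell's UMIs. These 6 cells, with a median of 5900 UMIs, had 0 UMIs of Cd3g and 0 or 1 of Cd3d. Without them the median log2 ratio of the FAP list between the Cd3d+ Lyz2- and Cd3d- Lyz2+ cells was -1.25, against -3.28 with them. Without the 5% of cells with the most UMIs it was -0.99, and the Col1a1 log2 ratio, -3.44 with all cells, was 0.21. The part of doublets in these cells was not tested. A split by Cd3d alone, added after the values were seen, gave the same directions for both lists. Between 232 Cd3d+ and 177 Cd3d- cells, 4.75% of 4127 genes were at least 2-fold higher and 7.92% at least 2-fold lower. There 4 of 16 members of the T cell receptor complex list without Cd3d were at least 2-fold higher, and 7 of 8 of the FAP list at least 2-fold lower.

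Genes of different T cell and innate lymphoid kinds were compared cell by cell. Cd8a was detected in 47 cells, of which 44 (93.6%) also had Nkg7 and 2 had Cd4, which 28 of all cells had. Il17a was detected in 20 cells, of which 16 had Cd3d, 11 had Cd163l1, a scavenger receptor known from gamma delta T cells, and 0 had Nkg7, which allows a share of up to 15%. Nkg7 was present in 55.5% of all mixed-label cells. Il1rl1, the interleukin 33 receptor, was detected in 22 cells, of which 6 had Cd3d and 0 had Nkg7, which allows up to 13.6%. Foxp3, the regulator of regulatory T cells, was seen in 3 cells with 4 UMIs in all, each with Cd3d. At a median of 1357 UMIs a cell can express a gene and show no UMI of it, so these counts limit detection and not expression.

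Clustering of the 409 cells alone gave 5 sub-clusters, which describe the same kinds. Their genes were used to form them and are given as a description. Sub-cluster 1 (242 cells) had Ccl5 in 81.4% of cells, Nkg7 in 69.4%, Cd3d in 64.0%, Cd8b1 in 21.5% and Cd8a in 16.9%. It stayed unnamed because T cell and NK markers tied at 2 each among its leading genes, under the 3 that a name needed. Haemoglobin genes also led it over the other sub-clusters, but the 51 UMIs of Hba-a1 lay in 1 cell. Sub-cluster 2 (62 cells) was the deepest, at a median of 3234 UMIs, and had Top2a in 64.5% of cells, Gzma in 48.4%, Mki67 in 31 of its cells, Klrb1c in 25.8% and Cd3d in 37.1%. Of the NK and cytotoxic list, Nkg7, Gzma and Xcl1 were among its leading genes over non-immune cells, with no T cell marker, but it was left unnamed. It also held 344 of the 405 Col1a1 UMIs of the label and both cells that Scrublet called doublets. Its T cell, cell cycle and FAP lists summed to 2474, 9172 and 9851 cpm.

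Sub-cluster 3 (56 cells) held 63 of the 69 Il17a UMIs and 38 of the 39 Cd163l1 UMIs, and had Tmem176a in 55.4% of cells, Il7r in 51.8%, Icos in 41.1% and Cd3g in 58.9%. Nkg7 and Cd8a were in 0 of its cells. Sub-cluster 4 (28 cells) had the activation genes Tnfrsf4, Tnfrsf18 and Ctla4 in 64.3% of cells each, Cd3d in 71.4% and Cd4 in 25.0%, and held all 4 Foxp3 UMIs. Its Cd74 level of 2517 cpm (152 UMIs) includes the deep cell with 131 Cd74 UMIs. Sub-cluster 5 (21 cells) had Il1rl1 in 66.7% of cells, Gata3 in 57.1%, Areg in 57.1%, Csf2 in 47.6%, Il5 in 23.8% and Il13 in 14.3%, with Cd3d in 14.3% and Nkg7 in 0. By its markers it was group 2 innate lymphoid-like, a kind known to make type 2 cytokines in tissue repair. Its leading genes held 3 such markers, Areg, Il1rl1 and Il13, the least a name needed. Of the 14 Il13 UMIs of the label, 11 lay in 1 cell. The name rests on this clustering: at Leiden resolution 0.3 no such sub-cluster was found, and Csf2 and Cma1 led an unnamed one of 75 cells together with Il17a. Its dissociation stress list summed to 18247 cpm, against 8463 to 12138 cpm in the other sub-clusters, and the part of that in its genes was not tested. The mast cell genes Cma1 and Tpsb2 also led it, each in 1 of its cells, with 42 and 11 UMIs.

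**Figure D5:**
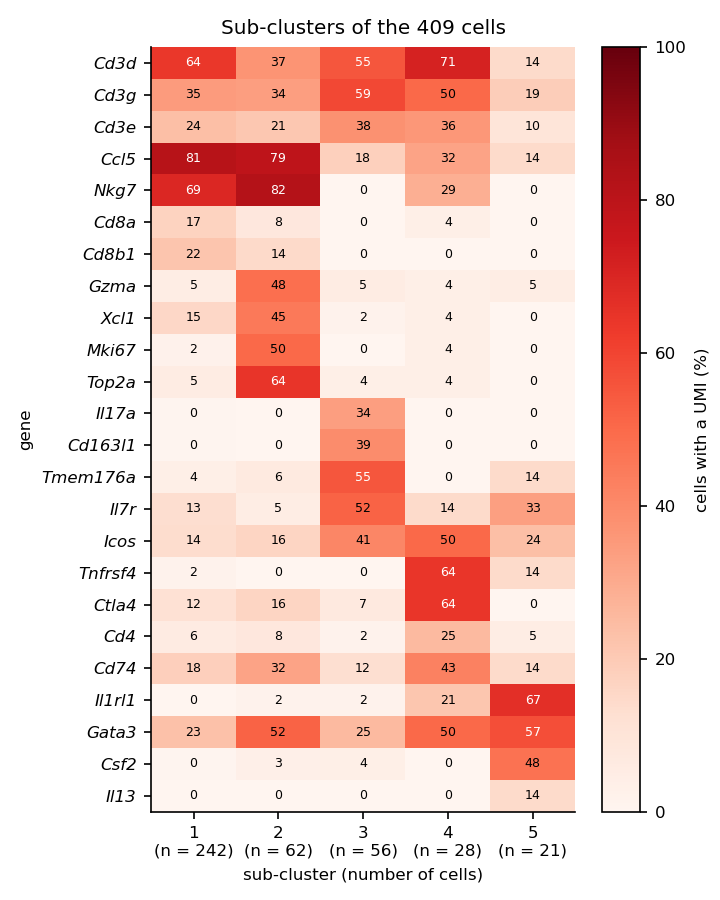
Percent of cells with a UMI of each gene (rows) in the 5 sub-clusters of the mixed-label cells (columns, with the number of cells); the genes took part in the clustering. Il17a and Cd163l1 lie in sub-cluster 3, Tnfrsf4 and Ctla4 in sub-cluster 4 and Il1rl1 and Csf2 in sub-cluster 5, while Nkg7 is at 0 in sub-clusters 3 and 5.

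At other days no label has the same name, and levels are given side by side without a comparison because age, sex and depth differ. Cd3d stood at 54.5 cpm in the 297 Immune cells of day 0, 1.53 cpm in the 3405 Immune cells of day 2, 621 cpm in the mixed-label cells of day 5 and 555 cpm in the 378 NK/T cells of day 7, whose median depth was 3946 UMIs. Il17a stood at 92.9 cpm in the mixed-label cells of day 5 and 0.912 cpm in the NK/T cells of day 7, from 69 and 2 UMIs. Il7r stood at 145 cpm at day 5 and 29.2 cpm at day 7. Cd8a stood at 94.2 cpm at day 5 and 170 cpm at day 7 in the same labels, and Gzma at 708 cpm and 2036 cpm. The day 7 label joins NK and T cells, which the day 5 annotation divides, so its levels cover another mixture.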

How the data were processed

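Single-cell 10x 3' v2 libraries of mouse tibialis anterior were used as the authors deposited them. Per the submitters' processing notes, build mm10 was used, and the tools were Seurat 2.3.4, R 3.6.2 and Cell Ranger 2. The deposited raw tables hold whole UMI counts per gene and barcode, by gene symbol, for genes seen in at least 3 barcodes. The authors' normalized values are natural log values: each count was divided by its cell's total and scaled to 10000, and 1 was added before the log. Recomputed from the raw counts, they differed by at most 6.22e-15. The authors' metadata give the mitochondrial fraction and the cell label, both used. Another 15 metadata columns of per-cell values were not used. Of the 2177 day 5 barcodes, 13 have no label and were left out.

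UMI counts were summed over the cells of each population (total counts from 76862 to 2916545 per day 5 label used) and expressed in cpm. Log2 ratios carry 95% Clopper-Pearson split intervals (scipy 1.17.1), and a floor of 3 counts replaced 0. Shares carry Clopper-Pearson intervals. Intervals and floors cover counting error only. A list member counts as measured with at least 20 UMIs over both groups, and as higher or lower beyond 2-fold. Of 309 genes in 24 lists, 17 were not in the day 5 table. Genes outside the lists were named by a rule, among those of 100 cpm and 50 UMIs or more in the higher group. Taken were the 15 with the largest and 10 with the smallest ratios over all other day 5 cells. The 8 with the largest over each other immune label were added, and 15 at each end between Cd3d+ Lyz2- and Cd3d- Lyz2+ cells. Cells were thinned without replacement to 500 or 1000 UMIs. Doublets were kept. Scrublet called 6 of 2164 cells (0.277%), too few to rely on. Sub-clusters used scanpy 1.11.5 (2000 variable genes, 20 components, 15 neighbours, Leiden 0.5, igraph 0.11.9). A name needed 3 markers and the most leading genes, and 2 stricter conditions on it were added after the values were seen. NK markers met the first part of this rule in sub-cluster 2, which was still left unnamed. The labels come from clustering of the same counts, so the label against other cells is a description. The scripts were tested on simulated data. Members and lists were chosen with earlier results of these data known. With 1 library per day there was no test.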

Additional observations from a re-analysis of the deposited data

How the results depend on the processing

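No paired analysis was possible because each injury day had 1 library and no result came from a test. On the authors' normalized values (difference of mean log values divided by the natural log of 2), 6 list medians of the mixed-label cells over all other day 5 cells kept their sign but shrank. This setting changes both the scale and the weight of cells, and the part of each was not tested. The dissociation stress median, 0.11, turned to -0.19. The 6 medians were 0.62 (T cell receptor complex), 0.10 (NK and cytotoxic), -0.45 (MHC class II), -0.41 (macrophage), 0.13 (cell cycle) and 0.15 (group 2 innate lymphoid), with 35 genes at least 2-fold higher and 98 lower, against 1141 and 3217 from summed counts. Thinned to 500 UMIs, the medians were 0.35 (NK and cytotoxic), -3.40 (MHC class II) and 2.25 (cell cycle), with 598 genes higher and 1736 lower, as fewer genes have counts. The mean of each cell's cpm gave 0.27 for the NK and cytotoxic list. Against the other immune-labelled cells the medians were 2.78 (T cell receptor complex), 0.13 (NK and cytotoxic) and -3.93 (MHC class II). Without the 5 cells of 10 or more Cd74 UMIs, an alternative chosen after seeing the data, the MHC class II medians were -3.37 over all other day 5 cells, 0.07 over NK cells (1.27 with them) and -5.25 over Anti-inflammatory macrophages (-4.36 with them).

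Shares of mixed-label cells with Cd3d, Cd74 and Lyz2 were 29.6%, 4.89% and 5.13% at 2 or more UMIs, 28.6%, 8.80% and 10.8% thinned to 500 UMIs, and 45.7%, 14.4% and 20% thinned to 1000. With at least 2 UMIs over the summed genes of each lineage, they were 50.9% for the CD3 genes, 23% for the lineage of Cd74 and 7.58% for Lyz2 with the C1q genes. No share of FAPs or NK cells is given at that setting, so 7.58% is not read as a share of macrophages. Between Cd3d+ Lyz2- and Cd3d- Lyz2+ cells, the FAP list median was -0.29 on normalized values, -1.71 thinned, -0.99 without the 5% deepest cells, -1.44 as a mean of cells and -1.25 without the 6 cells rich in FAP genes (chosen after seeing the data). The NK and cytotoxic median, -0.28, turned to 0.27 thinned and to 1.31 with cells chosen by summed genes (132 against 9 cells), where the macrophage median was -1.65. The cause was not tested. Genes at least 2-fold higher numbered 2 on normalized values and 53 thinned, against 218. Lower ones numbered 2, 29, 100 without the deepest cells and 145 without the 6 cells, against 225. Col1a1 turned to 0.21 without the deepest cells and Mgp to 0.06 on normalized values. Of all 149 alternative values of lists, counts and shares, 104 stayed within their limits, and of 456 gene values 303 did and 2 changed sign. Leaving out Scrublet doublets moved no value beyond its limits. Leiden resolution 0.3 gave 5 other sub-clusters, of 249, 75, 52, 25 and 8 cells, and none was named. Those of 52 and 8 cells each had 3 NK markers, Nkg7 and Gzma among them, in their leading genes over non-immune cells. Over the rest of the label, the cluster of 75 cells was led by Il17a and also by Csf2 and Cma1, and that of 8 cells by muscle genes. At a median of 1357 UMIs, shares of cells with a low gene are limited by depth.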

Other observations

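Further gene lists are read against the shares over all genes, 10.2% at least 2-fold higher and 28.8% lower than in all other day 5 cells, and 11.4% higher than in NK cells. Of the lymphocyte cytoskeleton and coat list, 14 of 16 measured members were at least 2-fold higher than in all other day 5 cells and 3 of 16 than in NK cells. Of the MHC class I list, 5 of 14 were at least 2-fold higher than in all other day 5 cells and 0 than in NK cells. Of the interferon response list, 5 of 14 were at least 2-fold lower than in all other day 5 cells and none higher, and 3 of 10 were at least 2-fold higher than in NK cells. Ifi27l2a stood at 1255 cpm in the mixed-label cells, against 104 cpm in NK cells (log2 ratio 3.6, 3.17 to 4.06). Ly6c2, a surface protein of monocytes that activated CD8 T cells also carry, stood at 417 cpm in the mixed-label cells, against 110 cpm in NK cells and 53.4 cpm in all other day 5 cells. The monocyte list summed to 2784 cpm in the mixed-label cells, against 2104 cpm in NK cells, 2663 cpm in Anti-inflammatory macrophages and 3996 cpm in FAPs. With FAPs highest of these, the sum is not read as a content of monocytes.

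Cd79a, the B cell receptor chain, had 11 UMIs in 4 mixed-label cells, 3 of which were among the 5 cells with high Cd74. It had 0 UMIs in the 29 day 5 cells labelled B cells, which stood at 15430 cpm for Cd74.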
